A study of Rattus norvegicus with 6 samples.

Results

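The contacts described here are those of a gene promoter on rat chromosome 13 with chromosome 3, as mapped by 4C-seq in cardiac endothelial cells. They comprise every EcoRI fragment of chromosome 3 in the deposited tables, 50132 of the 759990 fragments outside chromosome 13, or 6.60%. In 4C-seq, chromatin is fixed with formaldehyde, cut with a restriction enzyme and ligated, and the fragments joined to 1 chosen site, the viewpoint, are amplified and sequenced. The 6 libraries were made from cells at passage 2, pooled from male and female rats and fixed in 2% formaldehyde for 10 min, and 3 libraries came from each strain. SS (SS/JrHsdMcwi) is the Dahl salt-sensitive rat, and SS13BN (SS-13BN/Mcwi) is a consomic strain that carries chromosome 13 of the Brown Norway rat on the SS background. Chromosome 3 is thus of SS origin in both strains, while the viewpoint's own chromosome differs, and the design asks which places the promoter contacts and if these differ by strain. Whether the 3 libraries of a strain stem from different rats or cultures is not in the labels. The permutation and limma p-values given here therefore speak of the spread among these 6 libraries, and part of that spread may be technical. The binomial p-values of contact windows are computed within 1 library and do not measure that spread.

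Contacts between different chromosomes are rare compared with those along 1 chromosome. Each chromosome tends to keep to its own territory in the nucleus, and contacts between territories favour parts that are open and rich in genes over compact, gene-poor parts. A fragment of another chromosome can also be joined to the viewpoint by chance during ligation, so a single captured fragment is not by itself a contact. Capture was therefore read from the share of fragments captured over a stretch of the chromosome, set against the share captured in the same library outside chromosome 13. This ratio is called relative capture here, and 1 is the level of the library. Positions are on build rn5.

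The fragments of chromosome 3 run from 0 to 183740530 as the tables give them. Their median length was 2247 bp, against 2185 bp on the other chromosomes. The largest interval, from 2993038 to 8530793, spans 5.54 Mb as a single fragment and was captured in 0 of 6 libraries, so the chromosome was measured on both sides of it but not within it. Over the whole series, libraries captured 66610 to 132426 fragments outside chromosome 13, or 8.76% to 17.4%. SS 3 and SS13BN 3 list all of chromosome 13 at 0, while on chromosome 3 every library had scores.

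Chromosome 3 was captured above the level of the other chromosomes in all 6 libraries. Captured fragments of chromosome 3 numbered 7452 in SS 1, 6084 in SS 2 and 7158 in SS 3. They numbered 6004 in SS13BN 1, 10870 in SS13BN 2 and 5257 in SS13BN 3. As shares of the 50132 fragments these were 14.9% (95% Wilson interval 14.6% to 15.2%), 12.1% (11.9% to 12.4%) and 14.3% (14.0% to 14.6%) in SS. In SS13BN they were 12.0% (11.7% to 12.3%), 21.7% (21.3% to 22.0%) and 10.5% (10.2% to 10.8%). These intervals cover counting error only. SS13BN 2 and SS13BN 3 were the highest and the lowest library, so the SS13BN libraries enclose all SS libraries.

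Divided by the captured share of all other chromosomes except 13, capture of chromosome 3 was 1.22 in SS 1, 1.23 in SS 2, 1.22 in SS 3, 1.23 in SS13BN 1, 1.27 in SS13BN 2 and 1.21 in SS13BN 3. The mean ratio was 1.23 ± 0.0191 (SD, n = 6), so the distance of every library from 1 was far larger than the spread between libraries. An exact two-sided sign-flip permutation test over the 6 libraries gave p = 0.03125, the smallest that 6 libraries allow. That p arises for any chromosome whose 6 libraries all lie on 1 side of 1. Chromosomes 16, 10, 19, 8, 20 and 5 also lay above 1 in all 6 libraries. Chromosomes 18, 15, 2, 17, 14 and X lay below 1 in all 6. The p alone therefore does not set chromosome 3 apart. Chromosome 3 held the third highest mean ratio of 20 chromosomes, after chromosome 16 at 1.28 ± 0.0322 and chromosome 10 at 1.25 ± 0.0516. Its rank was 3 in SS 1, SS 2 and SS13BN 1, 2 in SS 3 and SS13BN 3, and 1 in SS13BN 2. These 3 chromosomes overlap in their libraries' values, and their order was not tested.

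**Figure D1:**
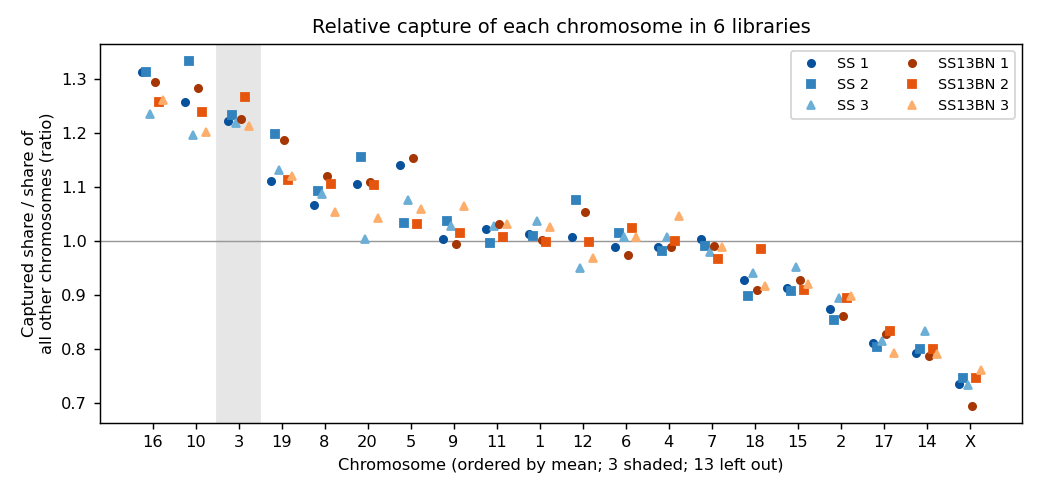
Captured share of each chromosome divided by that of all others except 13, with 1 point per library and chromosomes ordered by their mean. This ratio leaves the chromosome itself out of its base, unlike relative capture as defined above. The 6 points of chromosome 3, in the shaded column, lie between 1.21 and 1.27, among the 3 highest chromosomes in every library.

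Capture differed with fragment length, on chromosome 3 as elsewhere, and the excess of chromosome 3 was present in every length class. Fragments were placed in 20 length classes of equal size. On chromosome 3, the shortest class, up to 92 bp, was captured at 4.53% ± 1.06 (SD, n = 6), against 3.60% ± 0.465 on the other chromosomes. Capture reached 21.3% ± 5.03 in the class from 8314 to 11252 bp, against 17.3% ± 4.08. In the longest class, from 11253 bp, it was lower, at 18.4% ± 3.81 against 14.9% ± 3.34. The ratio of chromosome 3 to the others was above 1 in 6 of 6 libraries in each of the 20 classes, with class means between 1.12 and 1.35. With the expected capture set by fragment length, the ratio of the whole chromosome was 1.22 ± 0.0184 (SD, n = 6).

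**Figure D2:**
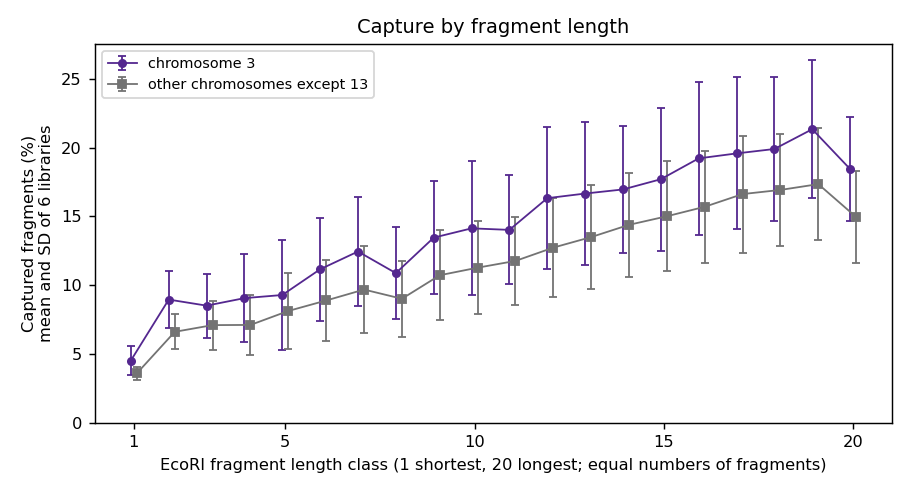
Captured fragments as a percentage of all fragments, by fragment length class, for chromosome 3 (circles) and the other chromosomes except 13 (squares), as mean and SD of 6 libraries. Chromosome 3 lies above the others in all 20 classes, from 4.53% against 3.60% in the shortest class, and the SDs overlap because libraries differ in their overall level.

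Capture was uneven along the chromosome, and the distal part carried the excess. Up to position 91870265, the middle of the chromosome, relative capture was 1.02 ± 0.00941 (SD, n = 6), and beyond it 1.40 ± 0.0293. The ratio of the distal to the proximal part was 1.40 in SS 1, 1.39 in SS 2, 1.35 in SS 3, 1.36 in SS13BN 1, 1.41 in SS13BN 2 and 1.36 in SS13BN 3. Its mean was 1.38 ± 0.0261 (SD, n = 6), and 1.36 ± 0.0287 with the expected capture set by fragment length. The libraries of both strains thus share this slope, with no library near 1.

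In finer steps the chromosome fell into a high stretch near its start, a lower middle and a high distal part. The bounds of these stretches were chosen after the values were seen, so their levels are given as a description, with no test. From 11000001 to 15000000, relative capture was 2.15 in SS 1, 2.20 in SS 2, 1.82 in SS 3, 2.33 in SS13BN 1, 1.87 in SS13BN 2 and 1.94 in SS13BN 3, with a mean of 2.05 ± 0.202 (SD, n = 6). The fragments there were long, with a median of 3696 bp, and with the expected capture set by fragment length the mean was 1.84 ± 0.195. From 15000001 to 21000000 the mean was 1.46 ± 0.196. From 21000001 to 95000000 it was 0.949 ± 0.0191, with all libraries between 0.923 and 0.971. From 95000001 to the end it was 1.42 ± 0.0321, with all libraries between 1.39 and 1.48. The lowest library of the distal part stood above the highest of the middle part by a wide margin.

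Of 37 bins of 5 Mb, 23 were above the level of the library in all 6 libraries and 7 were below it in all 6. Of the 18 bins from 95 Mb on, 17 were above it in all 6. The exception, from 140000001 to 145000000, had a mean of 1.07 ± 0.108 and stood at 0.880 in SS13BN 1. Of the 15 bins from 20 to 95 Mb, 3 were above the level in all 6 and 7 were below it. These counts were not made for bins of the other chromosomes, so no background stands beside them. The highest bins were those that start at 10000001, at 1.79 ± 0.134, at 125000001, at 1.75 ± 0.120, and at 160000001, at 1.64 ± 0.162. Their values overlap between libraries, so their order is not settled. The lowest were those that start at 20000001, at 0.745 ± 0.0546, at 80000001, at 0.773 ± 0.0239, and at 45000001, at 0.790 ± 0.0646. The step between the bins at 15000001 and 20000001, from 1.50 ± 0.206 to 0.745 ± 0.0546, was the steepest between neighbouring bins, and the lowest library before it, at 1.31, lay above the highest after it, at 0.792.

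**Figure D3:**
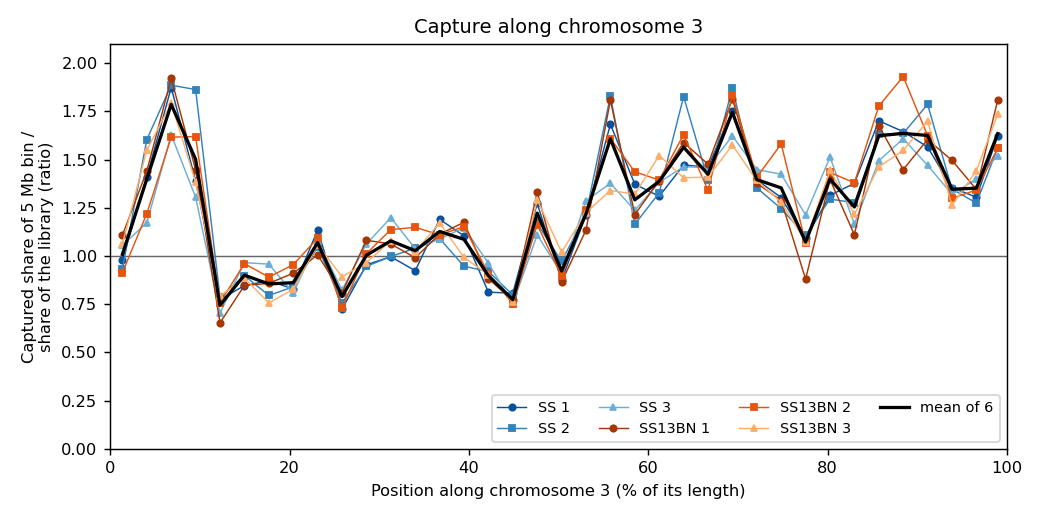
Relative capture of 37 bins of 5 Mb along chromosome 3, with position as a percentage of the chromosome's length, 1 thin line per library and the mean of 6 in black. The libraries follow 1 course, with a peak of 1.79 in the third bin, means of 0.745 to 1.22 from 20 to 95 Mb, and means above 1 in all 18 bins beyond, of which 17 are above 1 in every library.

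The ends of the chromosome differed from each other. The first 1 Mb had a relative capture of 0.602 ± 0.0433 (SD, n = 6), with libraries between 0.543 and 0.651. In the first 3 Mb as a whole, relative capture was 1.01 ± 0.0784. In the last 3 Mb it was 1.48 ± 0.156, with libraries between 1.33 and 1.70. No library of the start reached the lowest library of the last 3 Mb.

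Windows of 500 kb were then tested against the library level. A window was called above or below the level where the mean over libraries of log2((captured + 0.5)/(expected + 0.5)) differed from 0 in limma at a Benjamini-Hochberg adjusted p under 0.05 over all windows outside chromosome 13. Of 357 windows of chromosome 3 tested, 183 (51.3%) were above the level, where the share over all 5315 windows was 28.3%. Below the level were 50 (14.0%), against 29.9% over all windows. The median log2 level was 0.30 for the windows of chromosome 3 and -0.03 for all windows. The high windows lay mainly in the distal part: 139 of 178 windows from 95 Mb on were above the level and 7 below it. From 21 to 95 Mb, 24 of 148 were above and 39 below, and up to 21 Mb 20 of 31 were above and 4 below. From 21 to 95 Mb, both shares were under those over all windows, and the median log2 level was -0.13. That part was thus low mainly beside the rest of chromosome 3.

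With the expected capture set by fragment length, 170 windows were above the level, where all windows gave 25.2%, and 50 were below it, against 28.4%. Of the 183 and 50 windows first called, 168 and 46 were called the same way. With the expected capture set by the chromosome's own share, which removes the excess of the whole chromosome, 106 windows were above, against 26.7% of all windows, and 120 were below, against 27.9%. The split thus turns on whether chromosome 3 is set against the library or against itself, and on the latter scale its shares, 29.7% and 33.6%, were near the background. Relative capture of a window correlated with its median fragment length (Spearman rho 0.583 across 357 windows, 0.476 with the expected capture set by length) and with its number of fragments (rho -0.523). Windows are not independent replicates, and they share libraries and depth.

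The 183 windows above the level formed 43 runs of adjacent windows, 20 of which were single windows. The longest was 18 windows, from 123000001 to 132000000. The next were 17 windows from 141000001 to 149500000, 15 from 165500001 to 173000000 and 13 from 108000001 to 114500000. All 4 lie in the distal part. The 50 windows below the level formed 26 runs, 15 of them single windows. The longest of these was 8 windows, from 21500001 to 25500000, just after the high stretch near the start. Runs of 5 windows below the level lay from 46000001 to 48500000 and from 80000001 to 82500000.

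The highest window of the chromosome, from 102000001 to 102500000, ranked 5 among all windows outside chromosome 13. Of its 131 fragments, 45 were captured in SS 1, 54 in SS 2, 42 in SS 3, 46 in SS13BN 1, 69 in SS13BN 2 and 22 in SS13BN 3. Relative capture was 2.78, 4.13, 2.70, 3.54, 3.02 and 1.92 in the same order. SS 2 was the highest library and SS13BN 3 the lowest, and the strains overlap. The mean was 3.01 ± 0.758 (SD, n = 6), and the log2 level was 1.52 (SE 0.11; limma adjusted p = 1.3e-13). With the expected capture set by fragment length the log2 level was 1.47.

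A run of 3 windows from 13000001 to 14500000 held the next 3 highest means. In the window from 13500001, 30, 24 and 29 of 90 fragments were captured in SS 1 to SS 3, and 32, 34 and 21 in SS13BN 1 to SS13BN 3. Its relative capture was 2.75 ± 0.459 (SD, n = 6), and all libraries lay between 2.17 and 3.59. In the window from 14000001, 36, 34 and 27 of 105 fragments were captured in SS, and 26, 39 and 19 in SS13BN, a relative capture of 2.48 ± 0.461. In the window from 13000001, 26, 23 and 23 of 85 fragments were captured in SS, and 23, 33 and 17 in SS13BN, a relative capture of 2.45 ± 0.225. The values of these 3 windows overlap, so no order among them is shown. Their fragments were long, with medians of 2906 to 4282 bp, and with the expected capture set by length their log2 levels were 1.26, 1.14 and 1.07, in place of 1.40, 1.26 and 1.24.

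A second group of high windows lay between 126 and 129 Mb, inside the longest run. The window from 128500001 held 135 fragments, of which SS captured 39, 41 and 30 and SS13BN 33, 58 and 23, a relative capture of 2.35 ± 0.424 (SD, n = 6). The windows from 127500001 and 126000001 reached 2.22 ± 0.408 and 2.22 ± 0.273. The other 3 of the 10 highest start at 160000001 (2.20 ± 0.504), 89000001 (2.20 ± 0.355) and 8500001 (2.15 ± 0.346). The last holds the end of the 5.54 Mb fragment, and the window from 89000001 is the one among the 10 that lies in the lower middle part. In all 10 windows every library stood above its level, the lowest value being 1.51, in SS13BN 3 for the window from 160000001. The limma adjusted p of the 10 windows was at most 3.3e-10.

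The lowest window, from 140000001 to 140500000, was nearly empty. Of its 241 fragments, 2 were captured in SS 1, 1 in SS 2, 1 in SS 3, 4 in SS13BN 1, 2 in SS13BN 2 and 1 in SS13BN 3. Relative capture was 0.068 ± 0.050 (SD, n = 6), and the log2 level was -3.71 (SE 0.31; limma adjusted p = 3.4e-12). Its fragments were short, with a median of 393 bp, and with the expected capture set by length the log2 level was -3.36. In all, 234 of its 241 fragments were captured in no library. It interrupts the high distal part, and lies in the bin that was not above the level in every library.

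The other 4 lowest windows were higher than this. The window from 73500001 held 133 fragments, of which SS captured 5, 5 and 4 and SS13BN 3, 7 and 2, a relative capture of 0.272 ± 0.0711 (SD, n = 6). The window from 103000001, with 1 window between it and the highest of the chromosome, held 134 fragments, of which SS captured 6, 2 and 8 and SS13BN 1, 10 and 6, a relative capture of 0.338 ± 0.185. Every library captured more in the window at 102 Mb than any library did here, relative to its level, although the median fragment lengths, 2330 and 2010 bp, were close. Both windows were chosen as extremes of these same values, so their separation is a description only. The windows from 23000001 and 175000001 stood at 0.407 ± 0.118 and 0.470 ± 0.182. The limma adjusted p of the 5 windows was at most 9.7e-06.

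**Figure D4:**
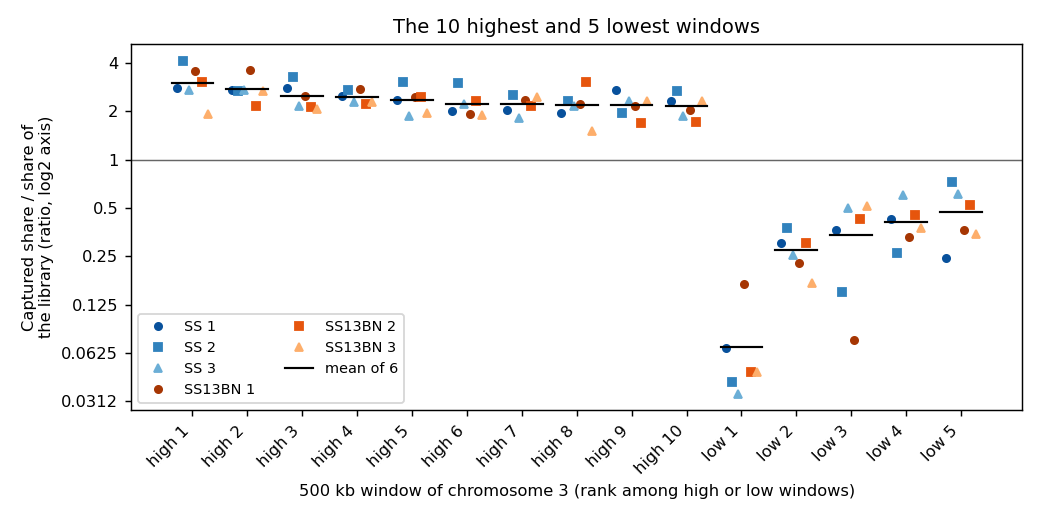
Relative capture of the 10 highest and 5 lowest windows of chromosome 3, in the order of their means, on a log2 axis with 1 point per library and a bar at the mean. The high windows lie between 1.51 and 4.13 in every library, and the lowest window, at 140 Mb, lies between 0.0349 and 0.167.

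Contact windows were called within each library by an exact one-sided binomial test of the captured fragments of a 500 kb window against the library's share, with a Benjamini-Hochberg adjusted p under 0.05. The test takes fragments as independent, so the calls describe libraries and do not test strains. Per library, 67 windows of chromosome 3 passed in SS 1, 51 in SS 2, 43 in SS 3, 56 in SS13BN 1, 110 in SS13BN 2 and 27 in SS13BN 3. As shares of the windows of chromosome 3 these were 18.7%, 14.2%, 12.0%, 15.6%, 30.7% and 7.54%, against 8.85%, 6.85%, 5.36%, 8.36%, 12.1% and 3.26% of all windows in the same libraries. The numbers are highest and lowest where the captured share was highest and lowest. In SS, 16 of 358 windows (4.47%) passed in all 3 libraries, against 1.86% of all windows, and in SS13BN 15 (4.19%) did, against 1.58%. In all 6 libraries 7 (1.96%) passed, against 0.713% of all windows. The 7 shared windows start at 13000001, 13500001, 120000001, 128500001, 154500001, 157000001 and 180500001, and 5 of them lie beyond 95 Mb.

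Relative capture was 2.09 ± 0.125 (SD, n = 6) in the shared window from 154500001 and 2.08 ± 0.167 in that from 157000001. It was 2.12 ± 0.279 in the window from 180500001 and 1.88 ± 0.307 in that from 120000001. All 6 libraries stood at 1.48 or more in each of these 4 windows, none of which is among the 10 highest by mean. The other 3 shared windows are.

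Of the 16 windows called in SS, 9 (56.3%) were not called in SS13BN, and of the 15 called in SS13BN, 8 (53.3%) were not called in SS. Over all windows these shares were 61.6% and 54.8%, so the share left unshared on chromosome 3 was near the background. The 9 windows called only in SS all met the rule in 2 SS13BN libraries and missed it in SS13BN 3, which captured the fewest fragments. Their binomial adjusted p in SS13BN 3 was under 0.1 in 4 windows, the lowest being 0.0538, and 0.171 to 0.422 in the other 5. The window from 102000001, the highest of the chromosome, is one of them, with a binomial adjusted p of 0.059 in SS13BN 3. Among the 8 windows called only in SS13BN, 7 met the rule in 2 SS libraries and 1 in 1 of them, and 5 missed it in SS 3. Their highest binomial adjusted p in SS was under 0.1 in 4 windows, the lowest being 0.0513, and 0.172 to 0.596 in the other 4. With SS13BN 3 left out, 43 contact windows (12.0%) were found in SS13BN, against 5.23% of all windows, and 16 (4.47%) in both strains, against 1.54%. With SS 3 left out, 32 (8.94%) were found in SS, against 3.71%, and 12 (3.35%) in both, against 1.07%. The rule then asks for 2 libraries of that strain in place of 3, which can only add windows. With the expected capture set by fragment length, 11, 8 and 3 windows passed in SS, in SS13BN and in all 6 (3.07%, 2.23% and 0.838%), against 1.05%, 0.881% and 0.338% of all windows. With that set by chromosome, 5, 3 and 1 passed (1.40%, 0.838% and 0.279%), against 1.18%, 0.9% and 0.413%, so on that scale the shares were near the background.

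The strains did not differ detectably in how much of the capture fell on chromosome 3. The share of a library's captured fragments that lay on chromosome 3 was 7.94% in SS 1, 8.01% in SS 2 and 7.92% in SS 3. It was 7.97% in SS13BN 1, 8.21% in SS13BN 2 and 7.89% in SS13BN 3. The SS13BN libraries hold both the highest and the lowest value. The mean of SS was 7.96% ± 0.0471 (SD, n = 3), and that of SS13BN was 8.02% ± 0.165 (SD, n = 3). They differed by 0.0642 percentage points, SS13BN minus SS, with an exact two-sided permutation p of 0.8, where 3 against 3 libraries cannot give less than 0.1. Without SS13BN 2 it turned to -0.0288.

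No window or bin of chromosome 3 passed the test between strains. Captured fragments per window, scaled to the mean library total, were compared on the log2(value + 1) scale in limma. Of 357 windows, 0 passed an adjusted p of 0.05, against 0% of all windows, and 9 (2.52%) had an unadjusted p under 0.05, against 3.02% of all windows. Of 37 bins of 5 Mb, 0 passed, again against 0%, and 0 had an unadjusted p under 0.05, against 1.64% of all bins. The median half-width of the 95% interval of the log2 difference was 0.47 for windows and 0.19 for bins, the latter a 1.14-fold change. For bins, the log2 differences (SS13BN minus SS) ran from -0.18 to 0.12. These intervals hold for single windows or bins, without adjustment, so a difference had to exceed them to pass. In the window from 76500001, a log2 difference of 0.80 with a half-width of 0.58 did not pass. Differences larger than the half-widths could therefore also go undetected with 3 libraries per strain.

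All SS13BN libraries lay above all SS libraries in 18 windows (5.04%), against 4.25% of all windows, and below them in 9 (2.52%), against 3.55%. Of the bins, 1 was separated in each direction (2.70%), against 2.37% of all bins each way. The bin from 110000001 had a relative capture of 1.34 ± 0.0378 (SD, n = 3) in SS and 1.44 ± 0.0743 in SS13BN, and the bin from 140000001 had 1.14 ± 0.0661 and 1.01 ± 0.110. These shares were near the background.

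The windows with the smallest p between strains had mean relative captures of 0.961, 0.986 and 0.712, in the order given here. Only the last was called below the library level (limma adjusted p = 0.0021). From 122500001, SS 1 to SS 3 captured 25, 17 and 23 of 157 fragments and SS13BN 1 to SS13BN 3 captured 11, 16 and 12. The log2 difference was -0.71 (SE 0.24; limma adjusted p = 0.999). SS13BN 2 captured the most fragments of all libraries, so its 16 correspond to a relative capture of 0.585, below all SS libraries. The window from 66500001 had 11, 10 and 11 of 131 in SS and 16, 28 and 15 in SS13BN, a log2 difference of 0.76 (SE 0.26; limma adjusted p = 0.999). The window from 76500001 had 10, 11 and 7 of 162 in SS and 16, 25 and 12 in SS13BN, a log2 difference of 0.80 (SE 0.29; limma adjusted p = 0.999). The relative captures of the strains were separated in all 3 windows, which were chosen for their small p, and none differed after adjustment.

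**Figure D5:**
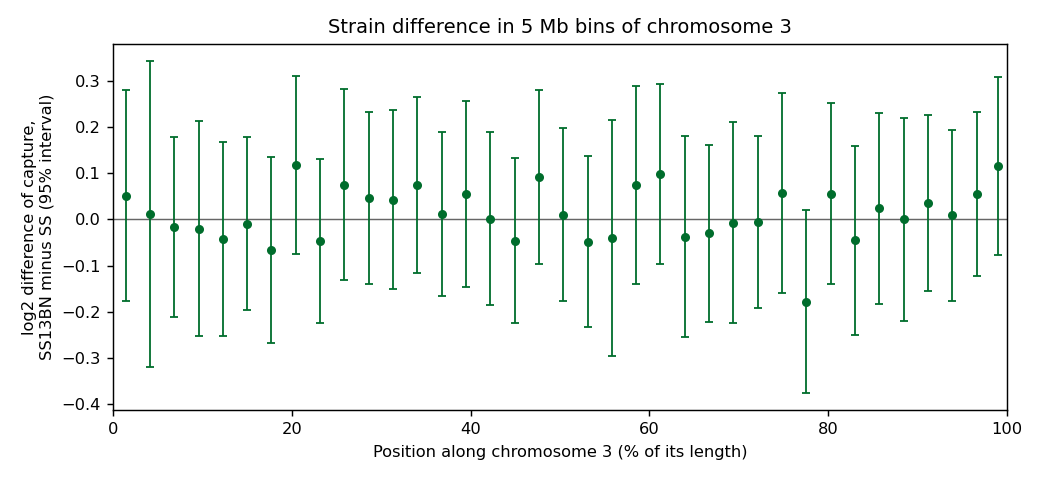
Log2 difference of scaled captured fragments, SS13BN minus SS, in 37 bins of 5 Mb of chromosome 3, with bars for the 95% interval from limma and position as a percentage of the chromosome's length. All intervals include 0, and the lowest point, -0.18, is the bin from 140 to 145 Mb.

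Single fragments recurred across libraries. Of the 50132 fragments, 927 (1.85%) were captured in all 6 libraries, against 1.46% on the other chromosomes, and 28519 (56.9%) in none, against 63.4%. Fragments captured in all 6 had a median length of 4563 bp, against 1873 bp for those captured in none. They made up 2.24% of the fragments beyond position 91870265 and 1.46% of those before it. Most stood alone: 749 had no such neighbour, 77 pairs were adjacent, and 8 runs held 3. The windows from 12500001, 14000001, 102000001, 124500001, 128500001 and 177000001 held 8 each, the most of any window. In the other high windows named above there were 1 to 7.

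Capture of neighbouring fragments went together. The fragment next to a captured one was captured at 1.78 times the share of all fragments of chromosome 3 in SS 1, 1.88 in SS 2, 1.75 in SS 3, 1.85 in SS13BN 1, 1.42 in SS13BN 2 and 2.06 in SS13BN 3. On the other chromosomes these ratios were 1.56 to 2.35. At a distance of 100 fragments the ratio on chromosome 3 was 1.04 to 1.19, and at 1000 fragments it was at most 1.06. The binomial test of windows does not account for this.

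Libraries of the same strain had no higher correlations on chromosome 3 than libraries of different strains. Over the 357 windows, Spearman correlations of relative capture had a mean of 0.728 ± 0.0244 (SD) for the 6 same-strain pairs. The mean was 0.774 ± 0.0292 for the 3 pairs of different strains with the same library number and 0.739 ± 0.0386 for the other 6 pairs. These are correlations across windows, which share their fragment lengths, and are given as a description.

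The captured fragments were read from the deposited scores, so the scores are described here as another view of the same data and no independent support. The score of a fragment counts captured fragments in a running window of 501 fragments, which on chromosome 3 spans a median of 1.74 Mb, and sets them against the chromosome's own share. The excess of the whole chromosome is therefore not visible in the scores. The highest score was 9.99 at 13242033 in SS 1, 10.8 at 101898523 in SS 2, 6.57 at 12972488 in SS 3, 10.7 at 101507382 in SS13BN 1, 9.26 at 160434234 in SS13BN 2 and 6.34 at 12846455 in SS13BN 3. Of the 6 libraries, 3 thus peaked near 13 Mb, 2 near 101.5 to 102 Mb and 1 at 160 Mb. A score above 3 in all 6 libraries was found at 1869 fragments (3.73%), in 27 stretches of 8.74 Mb in all. The longest stretches ran from 11810478 to 14657917, from 127940304 to 129597982 and from 168442562 to 169698780. Of the 10 highest windows, 5 overlap such a stretch, namely those from 13000001, 13500001, 14000001, 127500001 and 128500001, and 5 do not, among them the highest, from 102000001. A score below -3 in all 6 was found at 1982 fragments (3.95%), in 18 stretches, the longest from 22515800 to 24734260 and from 139665934 to 140713605. Of the 5 lowest windows, 2 overlap such a stretch, those from 140000001 and 23000001. Of these fragments, 250 are the first of the chromosome, where the scores are lowered by construction. The shares of fragments above 3 and below -3 were not counted on the other chromosomes, so no background stands beside them.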

How the data were processed

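The deposited tables hold 1 score per EcoRI fragment and library. The submitters' processing notes name the build rn5 and the tool CASAVA 1.8. Not given in the sources used here are the aligner, the read filters, the scoring program and the reads a captured fragment needs. From the values, each score outside chromosome 13 was a z-score: captured fragments in a running window of 501 fragments, minus the number the chromosome's captured share gives, over its binomial SD. Solving this gave a captured state for every fragment and rebuilt 100% of the windows in each library. At chromosome ends the window was filled with uncaptured fragments, which lowers the scores of the outer 250. Chromosome 13 was not used.

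Captured fragments were counted in 500 kb windows and 5 Mb bins, counted from base 1, with each fragment placed once. Levels and strain differences were tested with limma 3.58.1 (R 4.3.3), without the library number as a block, over all windows outside chromosome 13 with a mean of at least 1. The variance trend followed the mean log2(captured + 0.5) of a window for levels, and its mean tested value (trend = TRUE) for strain differences. Of the 358 windows of chromosome 3, 357 passed this filter. Pseudocounts were 0.5 for levels and 1 for strain differences, whose folds are understated where counts are low. Contact windows used scipy 1.17.1 and statsmodels 0.14.6. The named windows are the 10 highest above the level, the 5 lowest below it and the 3 with the smallest p between strains. Scripts were tested on simulated data. Members, rules and lists were chosen with earlier results of these data known. Alternatives were each library left out, other window lengths, expected captures, pseudocounts, filters, scalings and thresholds, and a fit with the library number as a block. An rn5 annotation and genome were not used here, so no gene is named and no sequence is shown. Python 3.11.15, numpy 2.4.6, pandas 2.3.3 and matplotlib 3.10.9 were used.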

Additional observations from a re-analysis of the deposited data

How the results depend on the processing

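The log2 ratio of chromosome 3 to the other chromosomes was 0.30 (exact sign-flip permutation p = 0.03125) and 0.27 to 0.29 with the expected capture set by fragment length, with X left out, or with the middle 16 of 20 length classes, an alternative chosen after seeing the data. With single libraries left out it ran from 0.29 to 0.30, with an exact permutation p = 0.0625, the smallest that 5 libraries allow. The strain difference in the share of captures was -0.0288 to 0.129 percentage points with single libraries left out, and turned to -0.0288 without SS13BN 2. Windows above the level numbered 167 to 180 and windows below it 46 to 48 with single libraries left out, and 106 and 120 with the expected capture set by chromosome. With the middle length classes they numbered 159, where all windows gave 23.6%, and 39, against 26.7%. For the named windows, the left-out libraries, expected captures, pseudocount, filter, middle length classes and block, and between strains also the scaling and the log odds of capture, changed no direction and no call. Other window lengths and thresholds were not run for them.

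Contact windows moved with nearly every choice. With single libraries left out they numbered 16 to 32 in SS, 15 to 43 in SS13BN and 7 to 16 shared. In SS, SS13BN and shared they numbered 7, 2 and 0 with 250 kb windows (0.98%, 0.28% and 0%, against 0.414%, 0.301% and 0.103% of all windows), so the SS13BN share was then at the background. They numbered 32, 27 and 18 with 1 Mb windows (17.8%, 15% and 10%, against 5.81%, 5.26% and 3.28%), and 6, 3 and 1 at an adjusted p under 0.01 (1.68%, 0.838% and 0.279%, against 0.806%, 0.356% and 0.169%). They numbered 5, 3 and 1 with the expected capture set by chromosome and 11, 8 and 3 with that set by fragment length. Window length changes how many fragments stand behind each test, and counts of windows of different lengths are not of the same thing.

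The library number as a block gave 185 windows above the level, 50 below it and 0 windows or bins between strains. For the share of captures it gave the same 0.0642 points, with an exact sign-flip permutation p of 0.75. With 3 pairs, that test cannot give a p under 0.05. Libraries of the same number deviated together with correlations of 0.0875, 0.130 and 0.0834 over 5296 windows, against -0.0932 to -0.00753 for other pairs between strains. Every library correlated best with its own number. The correlations of each library with those of the other strain nearly cancel, so the negative values are no independent comparison. As not every same-number correlation was over 0.1, the numbers were not taken as pairs. Same-number pairs also had the highest mean correlation over windows of chromosome 3, 0.774, and SS 3 and SS13BN 3 both list chromosome 13 at 0. On chromosome 3, however, SS 1 and SS 3 correlated best with SS13BN 2, at 0.784 each, and not with their own number. SS13BN 2 captured the most fragments. What the library number stands for is not in the labels, and if libraries of the same number share a batch was not tested. A window holds few captured fragments, from 1 upward in the low windows, and this limits what a strain test at 500 kb can show.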

Other observations

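At the start of chromosome 3 the scores and the captured fragments were both low, while at its end they read differently. The first 250 fragments, up to 525200, had median scores of -7.12 to -4.74 in the 6 libraries. Their relative capture was 0.634 ± 0.0855 (SD, n = 6), with libraries between 0.538 and 0.761. The last 250 fragments, from 182573433, had median scores of -2.51 to -0.15, while their relative capture was 1.41 ± 0.188, above the level of the library in all 6. In both places the running window reaches past the end of the chromosome and is filled with uncaptured fragments.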
